A study of Mus musculus with 6 samples.

Results

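The set described holds 10 genes: Aldh1l1, Aqp4 and S100b, which mark astrocytes in healthy tissue, and Gfap, Vim, Serping1, Emp1, Sphk1, Timp1 and Lcn2, whose transcripts are known to rise in reactive astrocytes. Members were taken as every probe that carries one of these names in the array files, which gave 15 probes of 55666 and 10 genes of 34788. The rule reads names and no values, but the genes were proposed with earlier results of these data known.

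Astrocytes supply neurons with metabolites, clear glutamate and potassium, and cover blood vessels with endfeet. After injury or inflammation they become reactive: they build more intermediate filament from Gfap and Vim and switch on secreted proteins, complement regulators and protease inhibitors, in part through gp130 cytokine receptors and the transcription factor STAT3. Several of these reactive genes are also expressed by fibroblasts, vessel walls, meninges and immune cells, so in bulk tissue they do not report on astrocytes alone.

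The samples came from male BALB/c mice, an inbred strain, at the age of 8 weeks. Each mouse received 1 intranasal dose of either saline or PAMAM dendrimers (0.15 mg/kg), which are branched polyamidoamine polymers, and tissue was collected after 24 h. The 6 groups are the olfactory bulb, hippocampus and cerebral cortex under saline and the same regions under PAMAM, with 1 array per group and RNA from 6 experiments combined on each array. The labels leave unstated whether the regions of a treatment share their mice. Groups thus have no replicate arrays: a PAMAM difference within a region is given by its size and direction without a p-value, while region differences were tested with limma over the 2 arrays of each region. In bulk tissue, fewer cells of a type and less RNA per cell cannot be told apart.

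All values below are log2 signal relative to the array's own 75th percentile of signal, so 0 is that percentile, and differences are PAMAM minus saline unless regions are named. Between 34134 and 39057 of 59305 spots per array were well above background and 0 were saturated. All 6 arrays shared 1 slide, and only the hippocampus pair was split between slide rows. Both bulb arrays lay in row 1 and both cortex arrays in row 2, so their region difference cannot be told apart from slide row. The tissue labels were checked with neuronal markers: 12 of 12 olfactory bulb markers were higher in the bulb than in either other region, 11 of 12 hippocampal markers were higher in hippocampus than cortex, and 9 of 12 cortical markers were lower in hippocampus than cortex (limma, adjusted p under 0.05). In the astrocyte check, 30 of 30 homeostatic astrocyte genes were well above background on every array.

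The probes of Gfap and of the 4 members with the largest PAMAM differences follow by their first 30 bases, shown because those differences rest on them and because probes of 1 gene did not all give the same value. Each probe is 60 bases long and is written in the direction of the transcript, from the array files, with no bases in capitals.
Gfap probe 1: ggttatattaacagagctagcctatgctaa
Gfap probe 2: tttgaggaactgaaacgtgttgtgttcaag
Gfap probe 3: caaaaggctcacaatacaagttgtcccaat
Serping1 probe 1: tgggtaaacattgtcacccaagcttcagct
Serping1 probe 2: gtaaagagcagccaagacatgctgtcagtc
Emp1 probe: cgcattggtgggttattctagtactgtatt
Sphk1 probe 1: ttgcatatagaagacactccccattgctct
Sphk1 probe 2: aagctgtgcagggccaagtgcacccaaact
Timp1 probe: tacttttcctccatctttctttctcttaga

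In the mm9 build named by the array files, the Gfap probes lie on the minus strand of chromosome 11, at chr11:102751813-102751872, chr11:102748864-102748923 and chr11:102752726-102752785. Probes 1 and 3 are assigned to 1 transcript record of Gfap (NM_001131020) and probe 2 to another (NM_010277). Probes 1 and 2 hold a stop codon in every sense frame, so neither can lie wholly within coding sequence. The Serping1 probes lie on the minus strand at chr2:84605663-84605722 and chr2:84605968-84607474. The latter spans 1507 bases for its 60 and so crosses an intron. The Emp1 probe is at chr6:135333061-135333120, the Sphk1 probes at chr11:116397908-116397967 and chr11:116397591-116397650, and the Timp1 probe at chrX:20451802-20451861, all on the plus strand. Exon and UTR annotation in this build was not used here.

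The homeostatic members hardly moved with PAMAM in any region. Aldh1l1, a folate enzyme used as a general astrocyte marker, read 3.37 under saline and 3.22 under PAMAM in the olfactory bulb, 3.17 and 3.17 in hippocampus and 3.53 and 3.58 in cortex. S100b, a calcium-binding protein of astrocytes, read 5.04 and 5.02 in the bulb, 4.49 and 4.59 in hippocampus and 5.01 and 5.02 in cortex. Both cortex arrays were the highest for Aldh1l1, and both hippocampus arrays were the lowest for S100b. Aqp4, the water channel of astrocyte endfeet, read 2.13 and 2.11 in the bulb, 1.38 and 1.45 in hippocampus and 0.99 and 0.92 in cortex by its first probe. Its second probe kept that order of regions, from 1.98 on the bulb's PAMAM array to 0.62 on the cortex PAMAM array. The largest PAMAM difference among these genes was -0.15, for Aldh1l1 in the bulb.

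The wider list of 30 homeostatic genes stayed under 1.5-fold, though some of them differed more than the members did. In each region 0 of 30 reached 1.5-fold. The medians were -0.01 for bulb, -0.05 for hippocampus and 0.03 for cortex, next to -0.01, 0.00 and 0.02 for all genes measured. In the cortex 19 were above 0 and 11 below. The largest differences there were -0.42 for Hepacam, -0.38 for Gpr37l1, -0.32 for Slc1a2 and 0.30 for Gjb6. In the bulb Sox9 gave -0.30. Genes around the homeostatic members were mostly under 1.5-fold as well. Of 8 aquaporins and anchoring proteins measured, only Aqp1, a water channel that is abundant in choroid plexus, reached 1.5-fold, with 0.67 in the hippocampus and 1.22 in the cortex. In the folate pathway around Aldh1l1, 1 of 11 genes did, the mitochondrial enzyme Mthfd2, at -0.64 in the cortex.

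**Figure D1:**
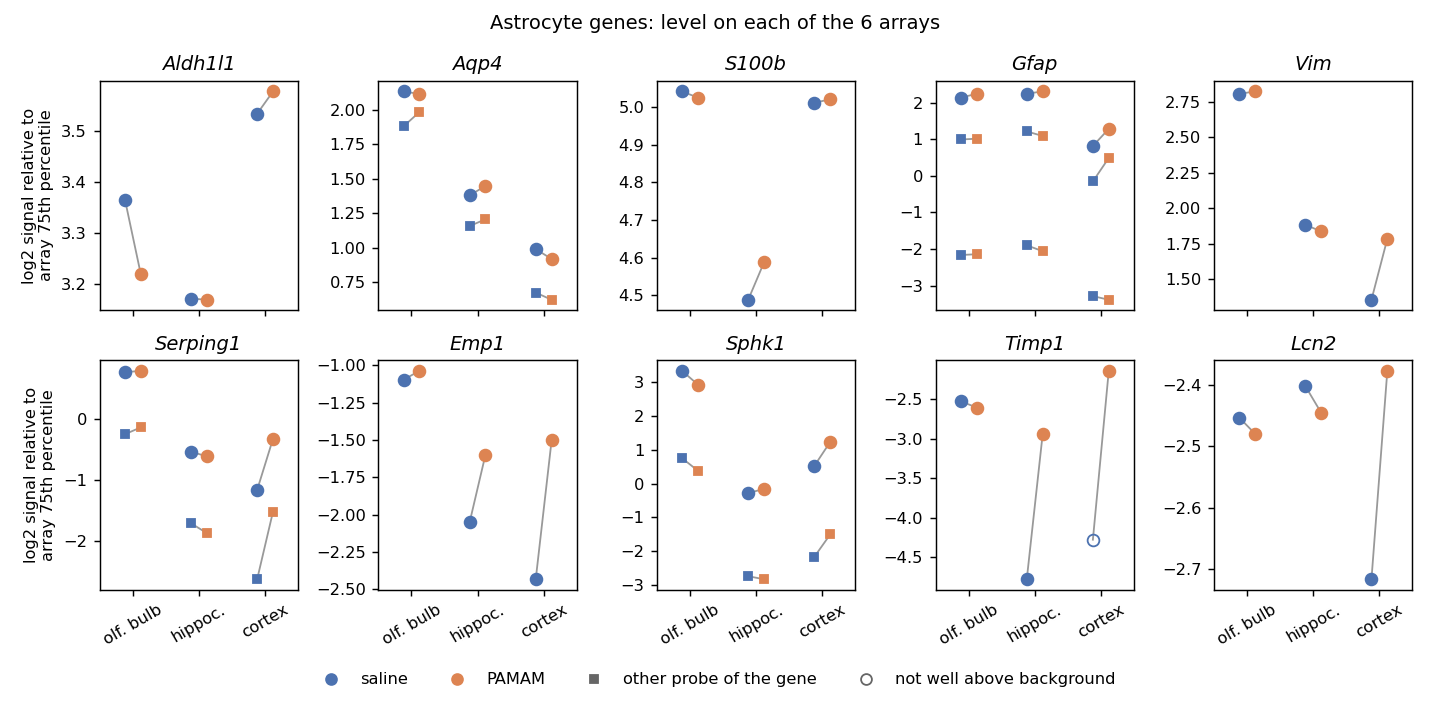
Level of each of the 10 genes on each of the 6 arrays, as log2 signal relative to the array's 75th percentile, with saline in blue and PAMAM in orange and a line joining the pair of a region; squares are further probes and the open circle is a value not well above background. Serping1, Emp1, Sphk1 and Timp1 climb from saline to PAMAM in the cortex, while Aqp4 and S100b stay level; each panel has its own axis, so levels are not compared between genes.

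The intermediate filament members read higher with PAMAM in the cortex, by less than 1.5-fold for the brightest probe of each. Gfap, the filament protein that defines the reactive state, read 0.82 under saline and 1.29 under PAMAM in the cortex by probe 1, a difference of 0.47. In the bulb the same probe read 2.14 and 2.24, and in the hippocampus 2.25 and 2.31. The cortex arrays were thus the lowest with or without PAMAM, and the PAMAM array moved part of the way towards the other regions. Probe 2 gave 0.64 in the cortex, from -0.15 to 0.49, which is 1.56-fold, with 0.02 in the bulb and -0.12 in the hippocampus. Probe 3 gave -0.10 in the cortex, from -3.29 to -3.39, so the Gfap probes did not share a direction there, nor in the hippocampus, where probe 3 gave -0.16.

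Vim, the partner filament protein vimentin, read 2.81 and 2.82 in the bulb, 1.88 and 1.84 in hippocampus and 1.36 and 1.78 in cortex. Its cortex difference of 0.43 brought the PAMAM array close to the hippocampus arrays. On the list of filament and cytoskeletal genes, which holds both, 0 of 10 measured reached 1.5-fold in the cortex by the brightest probe, and the median was 0.01. Of the partners that Gfap and Vim polymerise with, nestin (Nes) differed by 0.11 and synemin (Synm) by -0.11.

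Serping1 and Emp1 had the largest cortex differences among members measured on both arrays. Serping1 encodes the C1 inhibitor, which blocks the first complement proteases and the contact system. By probe 1 it read 0.76 and 0.78 in the bulb, -0.54 and -0.61 in hippocampus and -1.16 and -0.33 in cortex. The cortex difference of 0.83 is 1.78-fold, and it put the cortex PAMAM array above both hippocampus arrays. Probe 2 gave 1.10, or 2.15-fold, in the cortex, against 0.11 in the bulb and -0.16 in the hippocampus.

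Emp1, an epithelial membrane protein of the tetraspan family, read -1.10 and -1.04 in the bulb, -2.05 and -1.60 in hippocampus and -2.43 and -1.50 in cortex. Its difference was 0.93 in the cortex, or 1.91-fold, 0.45 in the hippocampus and 0.06 in the bulb. The cortex and hippocampus saline arrays were the lowest, and all 3 PAMAM arrays stood above the saline array of their region. Emp3, a relative of Emp1, gave 0.94 in the cortex, so 2 of 5 genes of the PMP22 and EMP family passed 1.5-fold there. Pmp22, the myelin protein of that family, differed by 0.13.

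Sphk1 read lower with PAMAM in the bulb and higher in the cortex. It encodes sphingosine kinase 1, which makes the lipid signal sphingosine 1-phosphate. Probe 1 read 3.34 and 2.94 in the bulb, -0.28 and -0.16 in hippocampus and 0.53 and 1.24 in cortex. The differences were -0.41, 0.12 and 0.71, and the cortex value is 1.64-fold. Probe 2 gave -0.37, -0.09 and 0.66, so both probes were lower in the bulb and higher in the cortex. In the rest of the sphingosine 1-phosphate pathway, the phosphatase Sgpp2 fell by 0.85 in the cortex. The receptor S1pr2 differed by 1.52 in the hippocampus, at a low signal, from -3.78 to -2.27. The kinase Sphk2 and the receptor S1pr1 differed by 0.39 and -0.26 in the cortex.

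Timp1, an inhibitor of matrix metalloproteinases and a marker of reactive glia, showed the widest differences, with signal close to background on some arrays. Its processed signal was 118 and 116 units in the bulb, 23.4 and 70.9 in hippocampus and 27.9 and 102 in cortex. On the log2 scale this is -2.53 and -2.61, then -4.78 and -2.95, then -4.28 and -2.15. The hippocampus difference was 1.83, or 3.55-fold, between arrays in different slide rows, whose part was not tested. The cortex saline spot was not well above background. Against that spot's own value, PAMAM was 4.38-fold higher in the cortex, a size that is not a lower limit. Those sizes rest on the background correction: with normexp correction the differences were 0.78 in the hippocampus and 0.97 in the cortex. Among 14 other TIMP and metalloproteinase genes measured in the cortex, Timp2 and Timp3 differed by 0.20 and 0.29. The membrane metalloproteinase Mmp16 fell by 0.83, from -3.40 to -4.23. That is a low signal, as the lowest value well above background on the cortex PAMAM array was -4.54.

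Lcn2, the secreted siderophore-binding lipocalin 2, read -2.45 and -2.48 in the bulb, -2.40 and -2.45 in hippocampus and -2.72 and -2.38 in cortex. The cortex saline array was the lowest, and the difference of 0.34 there stayed under 1.5-fold. At this signal, spot noise alone gives a difference an SD of 0.26 in the cortex.

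**Figure D2:**
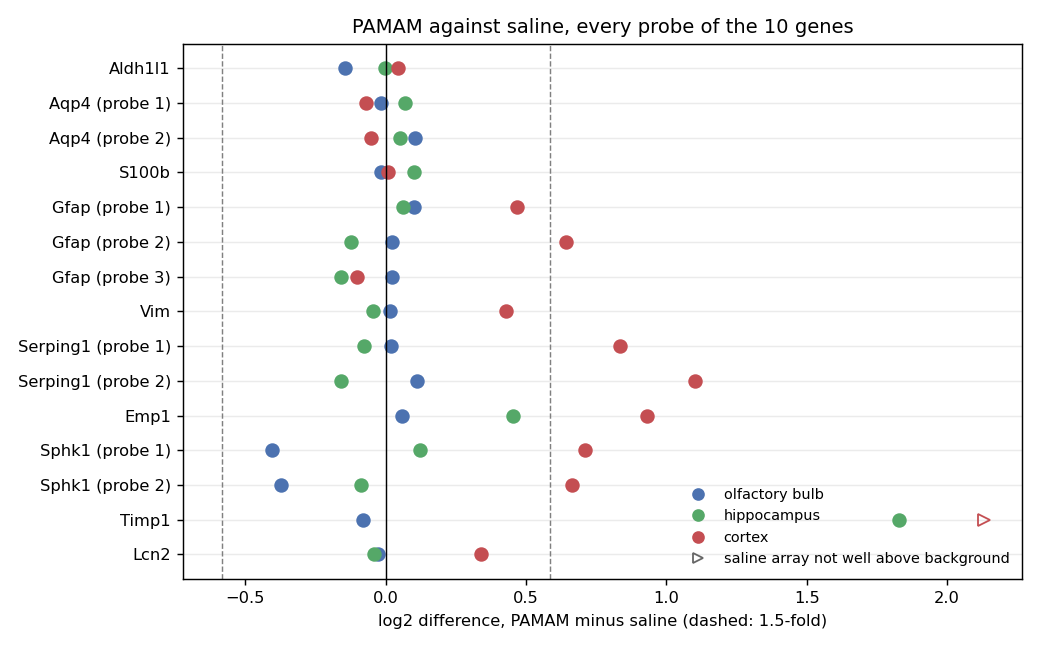
Log2 difference, PAMAM minus saline, for each of the 15 probes in each region, with dashed lines at 1.5-fold; the open triangle marks Timp1 in the cortex, where the saline spot was not well above background. Cortex points of Serping1, Emp1 and Sphk1 lie to the right of the 1.5-fold line, and the bulb points of Sphk1 lie to the left of 0.

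Counted over genes by their brightest probe, 3 of 9 members measured on both cortex arrays were at least 1.5-fold higher with PAMAM (Serping1, Emp1 and Sphk1) and 0 were lower. In the cortex 4.57% of all genes measured passed 1.5-fold, 1.79% upwards and 2.77% downwards. The median member difference was 0.43, against 0.02 for all genes. In the hippocampus 1 of 10 members passed, Timp1, where 3.08% of all genes did, 2.35% upwards and 0.734% downwards, with a member median of 0.06. In the olfactory bulb 0 of 10 passed, where 1.85% of all genes did, 0.497% upwards and 1.35% downwards, with a member median of -0.02.

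Repeated spots give the only estimate of error within a pair of arrays. For brighter probes the difference between arrays had an SD of 0.08 in each region, and for dimmer ones 0.23 in the bulb, 0.24 in hippocampus and 0.26 in cortex. More than 3 such SDs separated the arrays for 6 members in the cortex, all higher (Gfap, Vim, Serping1, Emp1, Sphk1 and Timp1), for 1 in the hippocampus (Timp1, higher) and for 1 in the bulb (Sphk1, lower). The share of all genes past this limit was not computed, so these counts cannot be read as unusual. Spot noise leaves out labelling, hybridisation, dissection and animals. It was estimated from probes well above background on both arrays of a pair, which Timp1 in the cortex was not. Of 9 members measured in all regions, 2 differed in the same direction in each, Gfap and Emp1, or 22.2%, where 29.5% of 20979 genes did. For Gfap this holds for probe 1 and not for the others.

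Over all 3 regions together, PAMAM could be tested in limma with region as the block, an analysis added after the data were seen. It called 0 of 10 members and 0% of 23730 genes, with 0.0934 as the lowest adjusted p of any gene. At an unadjusted p under 0.05 it held 3 members and 1580 genes, or 6.66%. The 3 were Timp1, with 1.29 ± 0.40 (SE, 3 region pairs) and higher in 2 of 3 regions, and Emp1 and Gfap, with 0.48 ± 0.16 and 0.21 ± 0.09 and higher in 3 of 3. Their limma adjusted p were 0.689, 0.71 and 0.737. That fit averages over regions and includes the Timp1 value that was not well above background, and it does not test the cortex by itself.

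The wider reactive lists, which include some of the members, showed their largest medians in the cortex too. Of the pan-reactive list, 1 of 10 genes measured passed 1.5-fold in the cortex, the small heat shock protein Hspb1, with 1.14. The oncostatin M receptor Osmr gave 0.40, ceruloplasmin (Cp) 0.56 and Serpina3n 0.08. In the cortex 8 of the 10 were above 0 and 2 below, Cd44 with -0.10 and S1pr3 with -0.19. The list's median was 0.37 in the cortex, 0.06 in the hippocampus and 0.06 in the bulb. In the hippocampus 2 of 11 passed, Timp1 and Hspb1, the latter with 0.90, and in the bulb 0 of 12 passed, where Hspb1 gave 0.41.

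Genes tied to inflammatory astrocyte states included 3 of 11 past 1.5-fold in the cortex: Serping1, the elastic fibre protein Fbln5 with 0.64 and the glucocorticoid-induced chaperone Fkbp5 with 0.67. Their median was 0.17. Complement C3 and the MHC gene H2-D1, both on this list, differed by -0.07 and -0.09. From the list tied to ischaemia, 4 of 7 passed: Emp1, Sphk1, the calcium-binding S100a10 with 0.65 and cyclooxygenase 2 (Ptgs2) with 1.06, and the median was 0.65. In the other regions 0 genes of either list passed.

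Around the STAT3 pathway, 1 of 13 genes passed in the cortex. It was Socs3, the feedback inhibitor that STAT3 itself induces, which read -1.31 under saline and -0.55 under PAMAM, a difference of 0.76. In the hippocampus it read -1.92 and -1.48, and in the bulb -0.85 and -0.73. Stat3 and the shared receptor Il6st differed by 0.07 and 0.08 in the cortex. In the complement list around Serping1 only Serping1 passed of 11 measured, with a median of 0.35, and the complement subunit C1qa gave 0.41.

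Markers of other tissues moved in the same arrays as the reactive members. Of 16 marker genes for meninges and fibroblasts, 12 were at least 1.5-fold higher in the cortex with PAMAM, with a median of 0.75 and a mean level that went from -0.83 to -0.15. Among the defining ones, decorin (Dcn) differed by 0.95, Lum by 0.35 and Ogn by 1.29, and the other large differences were those of Aldh1a2, with 1.18, and Slc13a4, with 1.15. In the hippocampus and bulb 0 of 16 passed, with medians of 0.00 and -0.02. All 16 were well above background on each array. Their part in the cortex differences of Serping1, Emp1, Sphk1, Vim and Gfap was not tested.

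Choroid plexus markers went along in the hippocampus and in the cortex. All 13 were higher by 1.5-fold or more in the hippocampus, with a median of 0.82 and a mean level from 1.15 to 1.95, and transthyretin (Ttr) read 7.27 and 7.95. The largest there were F5 (0.98), Slc4a5 (0.97), Sostdc1 (0.91) and Kcne2 (0.91). In the cortex 6 of 9 measured passed, with a median of 1.22 and a mean level from -2.73 to -1.29, and Ttr read 1.66 and 4.38, Folr1 -2.36 and -0.97, Kcnj13 -1.91 and -0.69, and Sostdc1 -3.30 and -1.66. The number of these markers well above background went from 9 to 12 of 13 between the cortex arrays. In the bulb 0 of 9 passed. What they contribute to Timp1 in both regions was not tested.

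Red blood cell genes gave medians of 0.07 in the bulb, 0.53 in hippocampus and 0.63 in cortex, where 3 of 5 measured passed 1.5-fold. The beta globin genes Hbb-b1 and Hbb-b2 differed by 0.82 and 0.69 in the cortex and the alpha globin gene Hba-a2 by 0.63. In the hippocampus the band 3 gene Slc4a1 differed by 0.91, at a low signal, from -4.06 to -3.15. Hbb-bt, the first name on that list, shares its values with Hbb-b1. Microglial and macrophage markers had a cortex median of 0.16, with the macrophage receptor Mrc1 at 0.95. Endothelial markers had a cortex median of 0.18, with Vwf at 0.60 and Tek at -0.59. Markers of pericytes and smooth muscle had one of 0.27, but 5 of 9 were above 0 and 4 below. The smooth muscle genes Acta2 and Tagln gave 0.76 and 0.70. Pericyte genes went both ways, with Rgs5 and Abcc9 at -0.32 and -0.24, and Pdgfrb and Vtn at 0.27 and 0.33.

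Neuronal, oligodendrocyte and ependymal markers had cortex medians of 0.07, -0.09 and -0.09, with the myelin gene Opalin at -0.63. Some neuronal markers of other regions also differed between the cortex arrays. Of 9 hippocampal markers 3 were higher by 1.5-fold with PAMAM, Spink8 (0.81), Pkp2 (0.71) and Lct (0.62), and of 10 bulb markers 3 were lower, Calb2 (-1.06), Trh (-1.04) and Sp8 (-0.83). Between the hippocampus arrays 4 of 12 cortical markers were higher, among them Rspo1 (0.77), Stard8 (0.67) and Lamp5 (0.62), and 1 bulb marker, Eomes (1.19). Eomes in the hippocampus and Calb2 in the cortex had low signals, from -4.40 to -3.21 and from -2.93 to -3.98. Of the cortical markers themselves, Nr4a2 gave 0.65 in the cortex and Scnn1a -0.87 in the bulb. What these markers contribute to the members' differences was not tested.

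**Figure D3:**
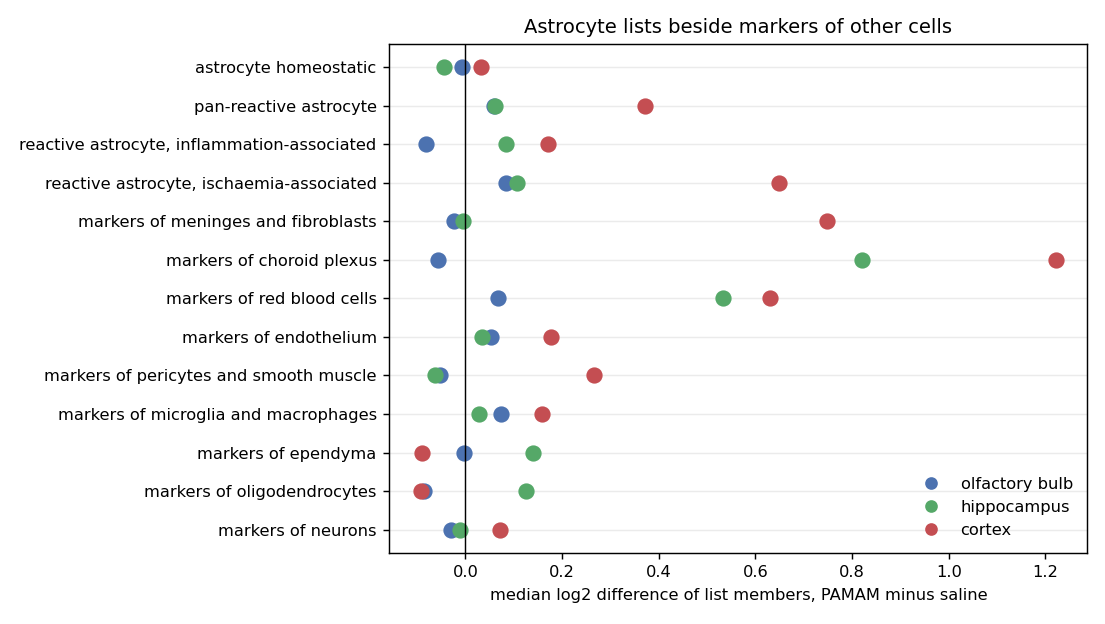
Median log2 difference, PAMAM minus saline, over the measured genes of 4 astrocyte lists and of 9 marker lists for other cells, in each region. The medians of homeostatic astrocyte genes sit between -0.05 and 0.03. In the cortex the ischaemia-associated list (0.65) lies beside the markers of meninges (0.75), choroid plexus (1.22) and red blood cells (0.63).

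Most members differed between regions. In the limma fit over all 6 arrays (region and treatment as terms, Benjamini-Hochberg adjustment over 23730 genes), the bulb was above the hippocampus for 6 of 10 members and below it for 0. In that comparison 46.6% of all genes passed, 19.8% with the bulb higher and 26.9% with it lower, and the member median was 0.73 against -0.04 for all genes. Sphk1 stood out in size, with 3.36 ± 0.22 (SE, 2 arrays per region), or 10.2-fold, and an adjusted p of 2.7e-05. Vim differed by 0.95 ± 0.12 (adjusted p = 0.00049), Aqp4 by 0.71 ± 0.07 (adjusted p = 0.000194) and Serping1 by 1.34 ± 0.20 (adjusted p = 0.00152) in the same fit, all higher in the bulb. S100b was higher by 0.50 ± 0.06 and Emp1 by 0.76 ± 0.20. The Emp1 call was lost without the bulb saline array (adjusted p = 0.166), without the hippocampus saline array (0.088) and without the hippocampus PAMAM array (0.101), and with the authors' deposited table (0.066), all by limma. With quantile normalisation Aldh1l1 was also called, higher in the bulb by 0.30 (limma adjusted p = 0.00709).

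Against the cortex, the bulb was higher for 6 members and lower for 1, where 49.2% of genes passed, 19.4% with the bulb higher and 29.9% with it lower. The higher ones were Sphk1 (2.26 ± 0.22), Serping1 (1.51 ± 0.20), Vim (1.24 ± 0.12), Aqp4 (1.17 ± 0.07), Gfap (1.14 ± 0.11) and Emp1 (0.90 ± 0.20), as log2 differences with their SE. For Gfap the limma adjusted p was 0.000127, which is a 2.20-fold difference. Aldh1l1 was the one lower, by -0.26 ± 0.07 (limma adjusted p = 0.0164). The Aldh1l1 call was lost without the bulb PAMAM array (0.209), without the cortex PAMAM array (0.0636) with the authors' deposited table (0.0907) and with quantile normalisation, where the difference was -0.01. Quantile normalisation added S100b, higher in the bulb by 0.31 (limma adjusted p = 0.00618). Emp1 was not called without the bulb saline array (limma adjusted p = 0.0731). Leaving out the bulb PAMAM array added Timp1, with 1.67 and an adjusted p of 0.00579.

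Between hippocampus and cortex 5 members passed, where 15.9% of genes did, 6.67% with the hippocampus higher and 9.27% with it lower. Gfap was higher in the hippocampus by 1.23 ± 0.11 (limma adjusted p = 0.000529) and Aqp4 by 0.46 ± 0.07 (0.00531), while S100b was lower by -0.48 ± 0.06, Sphk1 by -1.10 ± 0.22 and Aldh1l1 by -0.38 ± 0.07. Gfap and S100b kept their calls without any single array. Sphk1 and Aldh1l1 lost theirs without the hippocampus saline array (limma adjusted p = 0.113 and 0.121) and without the hippocampus PAMAM array (0.111 and 0.0791), and Aqp4 without the latter (0.0821). Leaving out the cortex PAMAM array instead added Vim, with 0.51 (adjusted p = 0.00313), and Serping1, with 0.60 (0.00717). Lcn2 did not pass in any of the 3 region comparisons, with differences from -0.04 to 0.12, nor did Timp1, whose fit includes the cortex saline value that was not well above background.

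In the main fit the order of regions was therefore bulb above hippocampus above cortex for Aqp4. For Vim, Serping1 and Emp1 the bulb was highest, and the difference between hippocampus and cortex did not pass the test: it was 0.29 ± 0.12 for Vim, 0.17 ± 0.20 for Serping1 and 0.14 ± 0.20 for Emp1 (limma adjusted p = 0.148, 0.654 and 0.697). Gfap had bulb and hippocampus together above the cortex, and Sphk1 had the bulb above the cortex above the hippocampus. For Aqp4 and Sphk1 the step between hippocampus and cortex was not called with the authors' deposited table or without the hippocampus PAMAM array. For Sphk1 it was also lost without the hippocampus saline array. Olfactory ensheathing glia, which wrap the axons entering the bulb, are known to share Gfap and S100b with astrocytes. Of their 8 listed markers 8 were higher in the bulb than the hippocampus and 7 higher than the cortex, with medians of 1.85 and 1.39. Meningeal markers were higher in the bulb as well, for 12 and 15 of 16, with medians of 1.16 and 1.51. Their part in the bulb's higher Vim, Serping1 and Emp1 was not tested.

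**Figure D4:**
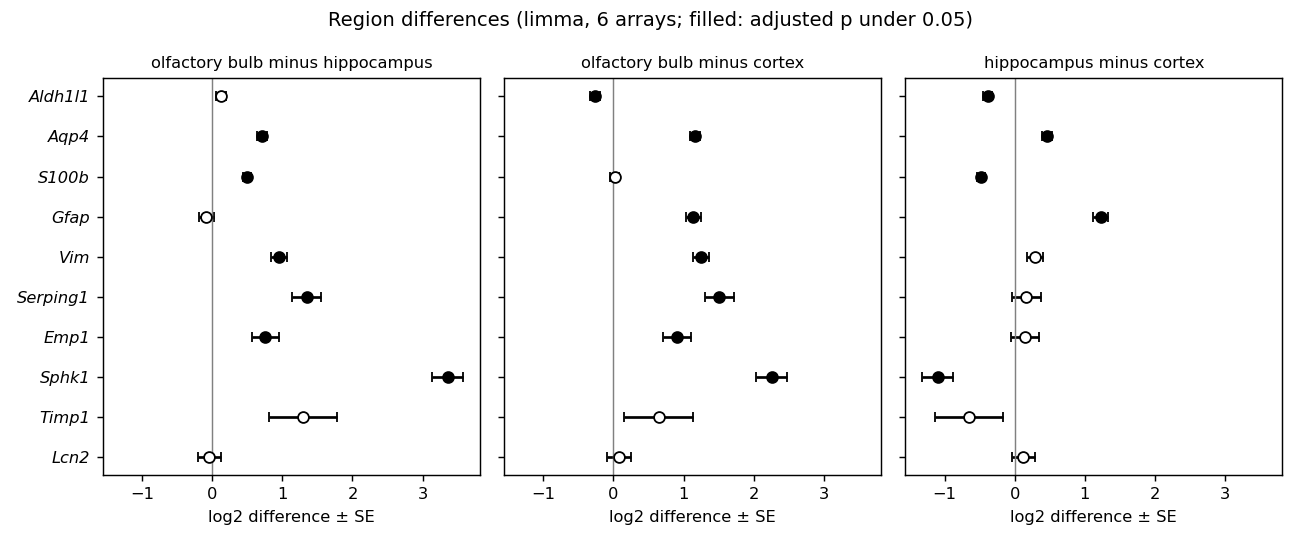
Log2 region differences of the 10 genes with their SE from limma over 6 arrays (2 per region), filled where the adjusted p was under 0.05. Sphk1 lies furthest from 0 in both comparisons with the bulb, and Gfap furthest in the comparison of hippocampus with cortex.

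The genes whose levels ran most like Gfap and Serping1 over the 6 arrays were sought among 20979 genes well above background throughout. For Gfap they were decorin (Dcn; r = 0.998), Stac (0.995) and the transcription factor subunit Gtf2e1 (0.992). Dcn read 3.49 and 3.47 in the bulb, 3.72 and 3.71 in hippocampus and 0.82 and 1.77 in cortex. Both its low cortex level and its higher PAMAM array there were shared with Gfap by probe 1, the probe used here. Gfap probe 3 was lower with PAMAM in the cortex, with -0.10. For Serping1 they were the kinase Map3k2 (r = 0.999), A630089N07Rik (0.997) and the G protein subunit Gng5 (0.995). Such r describe 6 points that share regions and scaling.

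Emp1 and Sphk1 were higher together in the cortex, and their start regions are shown because both hold the letters TGANTCA, the motif of AP-1 factors, in a window of 250 bases before the start. The sequences are from RefSeq (GRCm38.p6), on the plus strand, with the motif in capitals.
Emp1 chr6:135362681-135362930: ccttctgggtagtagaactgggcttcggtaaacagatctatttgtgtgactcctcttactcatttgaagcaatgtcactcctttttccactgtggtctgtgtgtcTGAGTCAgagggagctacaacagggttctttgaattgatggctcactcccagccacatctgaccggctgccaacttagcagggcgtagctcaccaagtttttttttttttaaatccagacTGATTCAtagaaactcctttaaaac
Sphk1 chr11:116531587-116531836: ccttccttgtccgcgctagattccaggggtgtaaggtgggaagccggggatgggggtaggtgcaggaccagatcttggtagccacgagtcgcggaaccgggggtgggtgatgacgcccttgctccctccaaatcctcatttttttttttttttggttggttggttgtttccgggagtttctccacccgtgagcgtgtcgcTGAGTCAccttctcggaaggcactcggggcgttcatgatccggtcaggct

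In Emp1 the motif begins 145 and 25 bases before the start, and in this Sphk1 start region 50 bases before it. The table gives Emp1 2 start regions, of which 1 holds the motif, and Sphk1 5, of which 2 overlapping ones do. The search covered both strands, on which this motif reads the same, and 8 of the 10 members had a start region in the RefSeq table. Serping1 and Aqp4 had none, so Serping1, which was also higher in the cortex, was not searched. Timp1 has 1 start region, which does not hold the motif. Of the 8, 2 held TGANTCA, where 6.75% of 32851 start regions and 7.82% of 27025 genes did. The motif TTCNNNGAA, bound by STAT factors, was found in the same 2 genes, where 8.13% of genes held it. TGACGTCA was in 0 of the 8, where 1.77% of genes held it. Emp1 and Sphk1 have more than 1 start region each, and so more windows in which to match. A match describes letters in a window and says nothing of whether a factor binds there.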

How the data were processed

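Expression was measured on 6 Agilent 1-colour arrays. The authors deposited scanner files of spot intensity on a linear scale, made with Agilent Feature Extraction 10.7.3.1 per the file headers, and a table of log2 values. That table matched the scaled log2 values below after centring each probe on its median over the arrays, the correlations lying between 0.999867 and 0.999966 (29553 probes) with no residual beyond 0.0233. The medians of its saline columns were -0.0906 (bulb), -0.0458 (hippocampus) and 0.0432 (cortex), and those of its PAMAM columns -0.0617, 0.0251 and 0.0346. How repeated spots were treated there is not given in the sources used here.

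The processed signal was taken as log2 minus the array's 75th percentile. Control spots and spots marked as outliers were left out, which dropped 15 of 55681 probes. Repeated spots were averaged, and a gene stands by its probe with the highest mean. PAMAM differences count as passing at 1.5-fold with both arrays well above background. Region differences used limma 3.58.1 in R 4.3.3 (eBayes with trend, terms for region and treatment), where arrays of different treatment serve as the 2 arrays of a region, and p-values measure only the spread between these arrays. That script was tested on simulated data. Tables were handled with Python 3.11.15, pandas 2.3.3 and numpy 2.4.6. Probe positions are mm9, per the array files. Names are those of the files, and all 10 members matched a RefSeq symbol (GRCm38.p6).

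The 10 genes and the 28 lists (316 genes, 314 on the array) were chosen with earlier results of these data known. All members were named with every probe. Other list genes were named when past 1.5-fold, up to the 4 largest per direction, with the first 3 genes of a marker list that moved with a member; other values given for list genes were chosen after they were seen, and some list genes are not reported here. Alternatives were median and quantile scaling, normexp background (offset 50), the authors' table, no filter on dim probes, the median over a gene's probes, a 2-fold limit, no treatment term, and leaving out each array. A test of PAMAM with region as the block was added after seeing the data.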

Additional observations from a re-analysis of the deposited data

Results flagged for a closer look

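Sphk1 moved in opposite directions in the olfactory bulb and the cortex. PAMAM minus saline was -0.41 in the bulb and 0.71 in the cortex by probe 1, which sets the regions 1.12 apart on the log2 scale, and probe 2 gave -0.37 and 0.66. With 1 array per group this difference was not tested.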

How the results depend on the processing

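No member changed direction past its threshold under any alternative run, and 85 alternative counts of members stayed within 1.5 times of the main one, against 4 that did not. Many of the 85 were 0 in both runs, which counts as unchanged and says little about stability. At 2-fold, 0 members were higher in the cortex in place of 3. Members called between hippocampus and cortex numbered 2 with the authors' deposited table in place of 5, and from 2 to 7 when each array was left out in turn. That table holds no levels, so limma's mean-variance trend cannot act on it as on the scaled values. Without the treatment term the Emp1 difference between bulb and hippocampus was not called (limma adjusted p = 0.0586). Median scaling moved the median of all cortex genes to 0.12 from 0.02, and Gfap, Vim and Sphk1 with it to 0.57, 0.54 and 0.82. The share of higher genes among those past 1.5-fold in the cortex was 39.2% in the main setting, 66.0% with median scaling, 57.7% with quantile normalisation and 55% with normexp, and in the hippocampus 76.2%, 61.0%, 64.5% and 93.3%. With the median over its probes, Gfap in the hippocampus was -0.12 in place of 0.06. With the authors' deposited table limma called neither Sphk1, Aldh1l1 nor Aqp4 between hippocampus and cortex (adjusted p = 0.117, 0.0975 and 0.0525). The labels carry no replicate numbers, so arrays were paired by region only; with region as the block, PAMAM called 0 members under each alternative run for it. With 1 array per group the number of arrays limits the precision, and for Timp1 the signal lies close to background on the saline arrays of hippocampus and cortex.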
